A study of Mus musculus and Homo sapiens with 10 samples.

Results

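The writers, erasers and regulators of DNA methylation were followed at the level of their transcripts in vitC-treated and control mESCs. These are the 9 genes Tet1, Tet2, Tet3, Tdg, Dnmt1, Uhrf1, Dnmt3a, Dnmt3b and Dnmt3l, among the 25899 genes of the mESC table. They were taken by symbol and not by a cutoff on a measured value, though earlier results of these data were known. Their upper-case counterparts were taken from the 35720 genes of the hESC table. All 9 were above the table's lowest value, which stands for no reads, in each of the 8 mESC libraries, and 8 of the 9 were so in the hESC libraries. RNA-seq had been performed on E14 mESCs, an established mouse line grown without feeders in serum-free 2i medium, which holds LIF and inhibitors of the MAPK/ERK and GSK3β pathways. There were 4 libraries of untreated cells and 4 of cells exposed for 24 h to 100 µg/ml vitC. Each control shares a culture name (10, 11, 35B or 35C) with 1 treated library. Nothing in the labels says what sets these cultures apart, or that they were grown from separate stocks, so p-values here measure the spread between these samples. For hESCs there was 1 control and 1 vitC-treated library labelled as H9, an established human line, with the same dose and time. The labels give KSR/FGF medium for these cells. The study's methods describe plain H9 in another, conditioned medium and give KSR/FGF to a primed derivative with inducible KLF2 and NANOG transgenes, and they do not state which gave the RNA. The mouse libraries are labelled as total RNA and the human ones as polyA RNA.

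DNA methyltransferases place a methyl group on cytosine, mostly where a C is followed by a G. DNMT3A and DNMT3B methylate new sites, helped by the catalytically inactive cofactor DNMT3L, whereas DNMT1 copies methylation onto the new strand after replication, guided by UHRF1, which binds half-methylated DNA. TET1, TET2 and TET3 are dioxygenases that use iron, oxygen and 2-oxoglutarate to oxidise 5-methylcytosine, a reaction that vitC is known to stimulate, and TDG excises the further oxidised bases so that repair can restore plain cytosine. Naive mESCs in 2i are known for low global methylation and primed hESCs for high methylation. Transcript levels as given here say nothing of enzyme activity or of methylation itself, which the RNA-seq did not measure.

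In brief, vitC-treated and control mESCs differed past the threshold for none of the 9 transcripts when pairing was ignored. Tet2 alone passed it when libraries of the same culture were paired, lower with vitC in 4 of 4 cultures. That call was lost without culture 10, and 10.8% of all tested genes passed in the paired fit. The culture sets lay further apart than control and vitC-treated cells for Tet2, which had 2.17 times as many normalised reads in cultures 35B and 35C as in 10 and 11. Uhrf1 was also higher and Dnmt3a lower in cultures 35B and 35C, where 32.8% of all tested genes passed the threshold. The Uhrf1 call was lost in control libraries alone, and that of Dnmt3a in control or vitC libraries alone. In hESCs, no member differed by 1.5-fold.

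The libraries held between 3354852 and 6921305 recovered gene reads for mESCs, and 15367652 and 17188555 for hESCs. Naive and core pluripotency markers were present in each mESC library, all 17 of them at a mean above 10 normalised reads. Of 8 listed genes of fibroblast feeders, Dcn and Twist2 were at 0 in all 8 libraries and 6 had a mean under 10 normalised reads. The other two moved with the culture sets described next, Thy1 with a mean of 8.13 normalised reads in cultures 10 and 11 and 63.9 in 35B and 35C, and the collagen gene Col1a2 with 33.6 and 0. In the hESC libraries the pluripotency and primed markers were high, whereas 7 listed markers of naive human cells summed to 130 normalised reads in control and 161 with vitC. Of these, KLF17 and DPPA5 had no reads and 5 had a mean under 10. KLF4 had 87.2 to 98.7 normalised reads and SUSD2 28.7 to 42.3. Of 9 listed markers of differentiated cells, the collagen gene COL1A1 was abundant there at 17750 to 19320 normalised reads. The others were far lower, with SOX1 the next at 355 to 372 and CDX2 at 0. The mESC cultures fell into a pair of sets, 10 with 11 and 35B with 35C, that stood apart across the table. Ribosomal RNA repeats took 42.0 to 51.5% of the counts in the deposited repeat tables in cultures 10 and 11 and 60.0 to 63.1% in 35B and 35C. Whether this share had a part in the differences between the sets was not tested.

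Windows of 250 bases before an annotated transcription start are shown for the 3 genes that differed between the culture sets and for Dnmt3l, so that the CpG density of these promoters can be seen. They are given 5′ to 3′ on the gene's strand with every CpG in capitals, from RefSeq on GRCm38.p6. Each window lies inside the gene's annotated span but holds no annotated exon base. The positions are chr3:133544391-133544640 on the minus strand for Tet2, chr17:56304063-56304312 on the plus strand for Uhrf1, chr12:3806730-3806979 on the plus strand for Dnmt3a and chr10:78049592-78049841 on the plus strand for Dnmt3l. RefSeq lists further starts for Uhrf1, Dnmt3a and Dnmt3l, and the counts do not tell which start was used.
Tet2: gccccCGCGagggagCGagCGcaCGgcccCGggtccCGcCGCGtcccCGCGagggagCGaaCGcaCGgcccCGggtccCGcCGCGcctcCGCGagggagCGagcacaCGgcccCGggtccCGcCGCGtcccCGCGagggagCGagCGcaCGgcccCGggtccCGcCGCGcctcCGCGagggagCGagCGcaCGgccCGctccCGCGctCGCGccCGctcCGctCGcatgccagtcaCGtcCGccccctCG
Uhrf1: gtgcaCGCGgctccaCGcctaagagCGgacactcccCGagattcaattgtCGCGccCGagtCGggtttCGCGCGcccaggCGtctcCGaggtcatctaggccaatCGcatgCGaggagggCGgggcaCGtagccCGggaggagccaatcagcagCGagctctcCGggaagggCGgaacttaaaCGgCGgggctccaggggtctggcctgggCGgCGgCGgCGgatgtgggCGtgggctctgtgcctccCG
Dnmt3a: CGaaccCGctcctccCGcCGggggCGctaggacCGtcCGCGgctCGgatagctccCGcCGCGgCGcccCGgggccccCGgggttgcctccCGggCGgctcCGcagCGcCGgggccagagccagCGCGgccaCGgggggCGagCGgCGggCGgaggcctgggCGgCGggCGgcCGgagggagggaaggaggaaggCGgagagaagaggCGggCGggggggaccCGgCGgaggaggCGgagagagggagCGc
Dnmt3l: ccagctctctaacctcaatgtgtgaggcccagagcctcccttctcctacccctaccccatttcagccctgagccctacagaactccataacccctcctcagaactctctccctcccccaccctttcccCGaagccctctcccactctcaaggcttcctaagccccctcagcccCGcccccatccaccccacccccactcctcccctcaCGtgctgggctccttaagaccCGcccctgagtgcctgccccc
The Tet2 window holds 51 CpG sites, a density reached by 0.0703% of the windows of 27025 mouse genes. The windows of Dnmt3a and Uhrf1 hold 38 and 30 sites, reached by 1.81% and 5.63%, and that of Dnmt3l holds 4, reached by 61.9%, where the median over all genes is 6. At their other listed starts the counts differ, with 10 sites for Uhrf1, reached by 38.2%, 40 and 15 for Dnmt3a, reached by 1.30% and 27.5%, and 5 and 3 for Dnmt3l, reached by 55.5% and 70.4%. CpG reads the same on both strands, so each site was counted once. These counts describe the sequence alone.

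Levels of different genes were compared as normalised reads per kb of annotated exon. In mESCs, Uhrf1 was the most abundant of the 9 transcripts at 877 ± 72.2 normalised reads per kb (SD, n = 8), and no library of any other member reached its range. Dnmt1 at 342 ± 27.8 and Dnmt3b at 329 ± 25.0 followed, and these neighbours did not differ beyond their spread, with Dnmt1 above Dnmt3b in 4 of 8 libraries. Next came Tet1 at 230 ± 32.3 and Dnmt3l at 173 ± 18.7 normalised reads per kb, whose ranges overlapped although Tet1 was above Dnmt3l in 7 of 8 libraries. A lower group was formed by Tdg at 29.4 ± 1.29, Dnmt3a at 29.1 ± 3.26 and Tet2 at 27.8 ± 11.6, and the order within it was not separable from the spread. Tet3 was the lowest at 3.71 ± 0.80 normalised reads per kb, below Tet2 in 8 of 8 libraries. With the longest transcript as the length, Dnmt3l stood above Tet1 and the lower group changed its order, while Uhrf1, Dnmt1 and Dnmt3b kept the first places and Tet3 the last. Processed pseudogenes are annotated for Tdg, Dnmt3a and Dnmt3l, and in the human genome for TDG, DNMT3A and TET1. Whether they drew reads from these genes was not tested.

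Within the TET family, per kb, Tet1 made up 84.2 to 92.7% of the summed level in the 8 mESC libraries, Tet2 5.98 to 14.6% and Tet3 0.814 to 2.28%. This split depends on the length used. With the longest transcript, mean levels were 247.5, 51.2 and 5.69 normalised reads per kb for Tet1, Tet2 and Tet3, beside 230, 27.8 and 3.71 per kb of exon. The Tet2 share was 5.98 to 8.84% in cultures 10 and 11 and 12.5 to 14.6% in 35B and 35C. Among the de novo enzymes, Dnmt3b made up 89.9 to 93.3% of the summed Dnmt3a and Dnmt3b level. In the control and vitC-treated hESC libraries, TET1 took 68.6 and 68.8% of the TET sum per kb, TET3 27.2 and 26.3%, and TET2 4.19 and 4.95%. DNMT3B took 84.1 and 83.1% of the DNMT3A and DNMT3B sum.

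**Figure D1:**
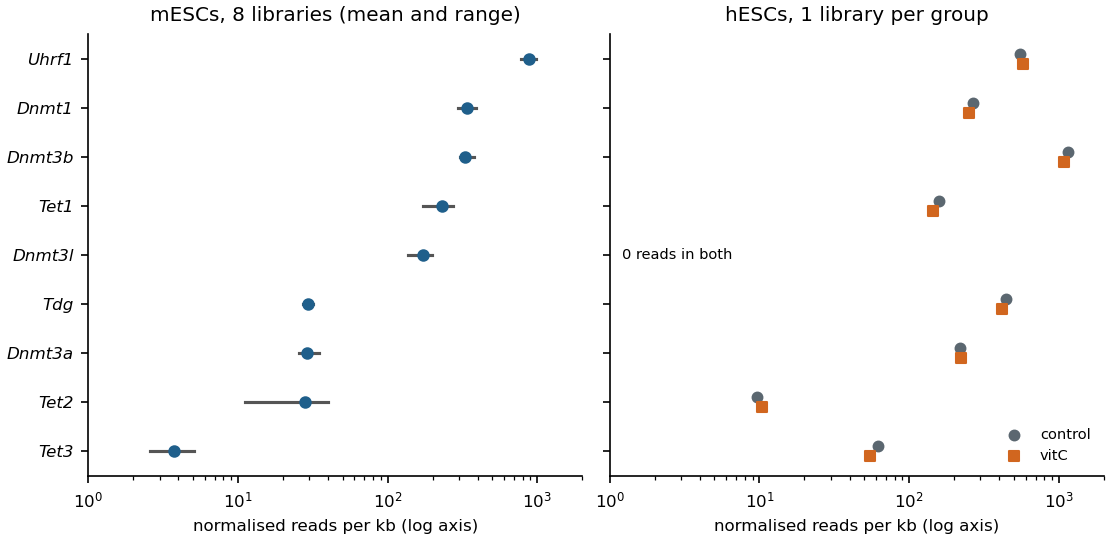
Normalised reads per kb of annotated exon on a log axis for the 9 genes, with the mean (point) and range (line) over 8 mESC libraries on the left and the single control and vitC-treated hESC libraries on the right. Uhrf1 leads in mESCs at 877 and Tet3 is last at 3.71, whereas DNMT3B leads in hESCs at 1154 in the control and DNMT3L has 0 reads in both libraries.

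Tet1 (chr10:62804570-62908996, minus strand of GRCm38) encodes the TET enzyme best known from mESCs. In control cultures 10, 11, 35B and 35C it had 3098, 3857, 4238 and 3545 normalised reads, and with vitC 2661, 3928, 3701 and 3421. The groups overlapped, and vitC libraries were lower than their own control in 3 of 4 cultures, culture 11 being the exception. Mean levels were 3685 ± 483 in control and 3428 ± 552 in vitC-treated cells (SD, n = 4). On the variance-stabilised scale, which is close to log2 for well-expressed genes, the difference was -0.11 (standard error 0.13, limma adjusted p = 0.916), and -0.11 (standard error 0.04, limma adjusted p = 0.0818) with the replicate block, which pairs the libraries of a culture. Without culture 11 the paired difference was -0.15 and past the threshold (limma adjusted p = 0.0219).

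Tet2 (chr3:133463679-133545139, minus strand of GRCm38) encodes a TET enzyme that lacks the CXXC domain by which TET1 and TET3 can bind CpG-rich DNA. Its normalised reads were 295, 416, 669 and 670 in control cultures 10, 11, 35B and 35C. With vitC they were 189, 287, 602 and 630. Each vitC library was below its own control, at 0.641, 0.691, 0.901 and 0.940 of its level, yet the groups overlapped widely because both libraries of cultures 10 and 11 lay under all 4 of 35B and 35C. The means were 512 ± 188 in control and 427 ± 222 in vitC-treated cells (SD, n = 4). The difference of -0.26 on the variance-stabilised scale missed the threshold without pairing (standard error 0.30, limma adjusted p = 0.914; -0.44 to -0.014 with each library left out, nearest to 0 without the vitC library of culture 10) and passed it once the replicate block was included (standard error 0.06, 95% interval -0.37 to -0.14, limma adjusted p = 0.00492). On recovered reads with the block, edgeR gave a log2 fold change of -0.30 (adjusted p = 0.00600) and DESeq2 -0.34 (adjusted p = 0.0465). Leaving out culture 10 ended the paired call, with a difference of -0.20 (limma adjusted p = 0.0693), whereas the call was kept without culture 11, 35B or 35C (limma adjusted p = 0.0326, 0.00544 and 0.00223).

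Tet3 (chr6:83362373-83459084, minus strand of GRCm38), the TET gene known from oocytes and differentiating cells, rested on few reads, between 38 and 102 per library. Its normalised reads were 84.7, 73.4, 42.98 and 54.4 in control cultures 10, 11, 35B and 35C and 67.2, 49.2, 62.7 and 61.4 with vitC. Thus vitC libraries were below their control in cultures 10 and 11 and above it in 35B and 35C. The mean difference was -0.03 on the variance-stabilised scale (standard error 0.07 with the replicate block, limma adjusted p = 0.847).

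Tdg (chr10:82629828-82650799, plus strand of GRCm38), the glycosylase that follows the TET enzymes, had the smallest spread of the 9 relative to its mean. Its normalised reads were 161, 159, 157 and 160 in the control cultures and 147, 150, 170 and 159 with vitC, in the same culture order. The 95% interval of the paired difference ran from -0.12 to 0.09 on the variance-stabilised scale (limma adjusted p = 0.887).

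Among the maintenance genes, Dnmt1 (chr9:20907209-20959888, minus strand of GRCm38) had 2566, 2619, 2366 and 2178 normalised reads in control cultures 10, 11, 35B and 35C and 2581, 2863, 2597 and 2395 with vitC. It was higher with vitC in 4 of 4 cultures, by a ratio of 1.01 in culture 10 and of 1.09 to 1.10 in the other three. The groups overlapped, and the difference of 0.10 (standard error 0.03, limma adjusted p = 0.0771) missed the threshold with the replicate block, which it passed without culture 10 (difference 0.13, limma adjusted p = 0.0360). Uhrf1 (chr17:56303321-56323486, plus strand of GRCm38) had 3493, 3522, 3838 and 3859 normalised reads in the control cultures and 3311, 3579, 4163 and 4116 with vitC. Its paired difference of 0.04 had a 95% interval of -0.03 to 0.11 on the variance-stabilised scale (limma adjusted p = 0.543).

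Of the de novo genes, Dnmt3a (chr12:3806007-3914443, plus strand of GRCm38) had 576, 459, 431 and 426 normalised reads in control cultures 10, 11, 35B and 35C and 538, 520, 453 and 475 with vitC. Dnmt3b (chr2:153649450-153687730, plus strand of GRCm38) had 1574, 1549, 1768 and 1605 in the control cultures and 1582, 1740, 1922 and 1702 with vitC. The cofactor gene Dnmt3l (chr10:78041947-78063622, plus strand of GRCm38) had 561, 410, 517 and 489 in the control cultures and 587, 562, 526 and 493 with vitC. Dnmt3b and Dnmt3l were higher with vitC in 4 of 4 cultures and Dnmt3a in 3 of 4, and for each gene the groups overlapped. Differences with the replicate block were 0.06 for Dnmt3a, 0.09 for Dnmt3b and 0.11 for Dnmt3l on the variance-stabilised scale (limma adjusted p = 0.453, 0.132 and 0.194). Among these 3 genes the largest step in a culture was that of Dnmt3l in culture 11, where the vitC library stood at 1.37 times its control. Without culture 11 the paired Dnmt3l difference was 0.028 (limma adjusted p = 0.808) and that of Dnmt3a 0.032 (0.787). Annotated antisense genes overlap Dnmt3a, Dnmt3b and Tet2 and were not analysed here, and the setting used for strand in counting is not given in the sources used here.

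**Figure D2:**
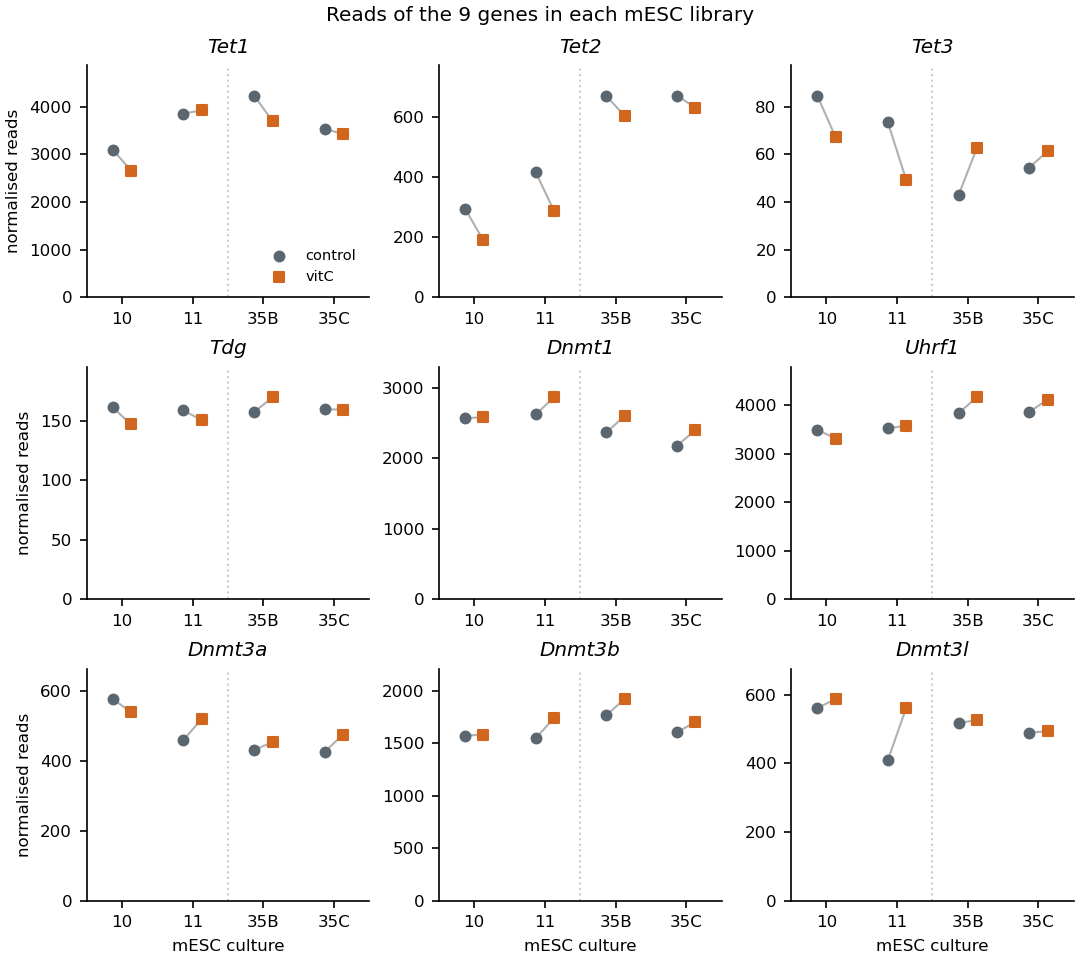
Normalised reads (linear axes from 0) of each of the 9 genes in control (circles) and vitC-treated (squares) libraries of the 4 mESC cultures, with a line joining the libraries of a culture and a dotted line between the culture sets. The Tet2 panel shows a vitC library below its control in each culture, and all libraries of 35B and 35C (602 to 670) above those of 10 and 11 (189 to 416).

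Counted over the members, limma without pairing put 0 of 9 past the threshold and 0 had an unadjusted p under 0.05, beside 50 of 14631 tested genes called, or 0.342%, and 1120 with such a p. With the replicate block, 1 of 9 was past it, where limma called 1581 genes, or 10.8%, and 5 members had an unadjusted p under 0.05 beside 3672 of all tested genes. On recovered reads, edgeR likewise called 0 members without the block and 1 with it. A share of 1 in 9 is near the background, so the count of paired calls says nothing particular about these genes. The 5 of 9 with an unadjusted p under 0.05 are a larger share than the 3672 of 14631, and whether chance gives this was not tested. Of the marker genes, 3 of 5 for pluripotency and 5 of 12 for the naive state were also past the paired threshold, as was 1 gene each of the primed (Zic2), endoderm (Pdgfra), trophectoderm (Tfap2c) and 2-cell (Zscan4d) lists (limma adjusted p = 0.0491, 0.0260, 0.000922 and 0.0331). Pdgfra, at 2.26 to 28.8 normalised reads over the libraries, and Zscan4d, at 0 to 5.76, rest on few reads. The pluripotency and naive lists had summed levels of 15060 to 16300 and 21180 to 24400 normalised reads in control and 13370 to 16060 and 22350 to 25610 in vitC-treated libraries, and their part in the Tet2 difference was not tested. In bulk RNA, fewer cells that express a gene and less of its RNA per cell cannot be told apart.

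**Figure D3:**
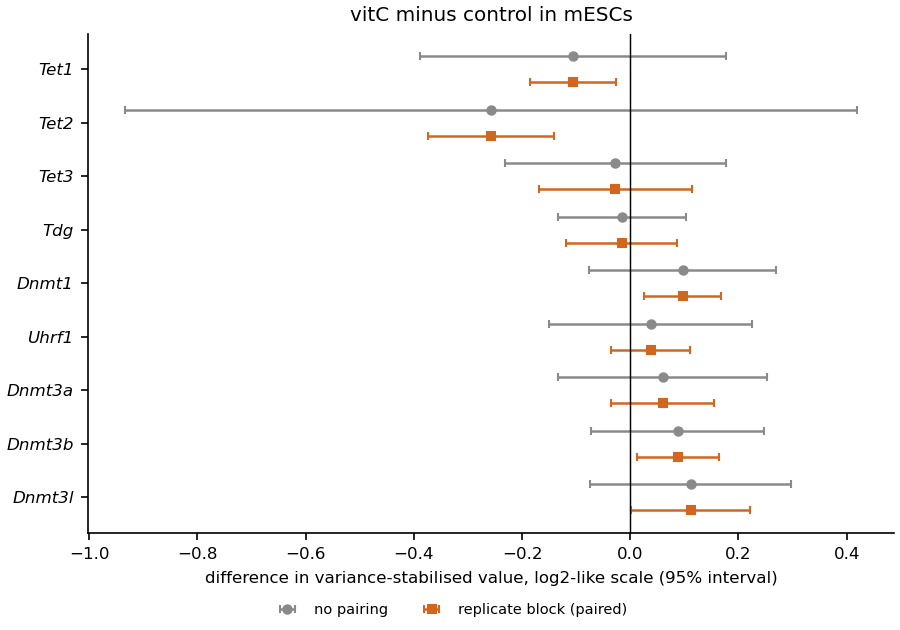
Difference between vitC-treated and control mESCs on the variance-stabilised, log2-like scale for the 9 genes, with 95% intervals from the unpaired limma fit (circles) and from the fit with the replicate block (squares), over 8 libraries and not adjusted for the number of genes. All unpaired intervals include 0, and the paired interval of Tet2, -0.37 to -0.14, lies farthest from it.

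Next the culture sets were compared, with each culture counted once as the mean of its control and vitC library, 2 cultures against 2. Past the threshold were 3 of the 9 members, where limma called 4799 of 14631 genes, or 32.8%, so the count is close to the background. Tet2 had 297 ± 92.8 normalised reads (SD, 4 libraries) in cultures 10 and 11 and 643 ± 32.8 in 35B and 35C. No library of one set reached the other. The difference was 0.90 on the variance-stabilised scale (standard error 0.09, limma adjusted p = 2.34e-05), and 1.14 as an edgeR log2 fold change. It was seen in control libraries alone, at 0.74 (limma adjusted p = 0.00465), and in vitC libraries alone, at 1.05 (limma adjusted p = 0.00105). Across every alternative run for this comparison, the Tet2 difference lay between 0.70 and 1.14, and its adjusted p did not exceed 0.00902.

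Uhrf1 was the other member whose sets did not overlap, at 3311 to 3579 normalised reads in cultures 10 and 11 and 3838 to 4163 in 35B and 35C. Its difference of 0.19 (standard error 0.06, limma adjusted p = 0.0259) was lost when any 1 of the 4 cultures was left out (limma adjusted p = 0.0681 to 0.225) and in the control libraries alone (difference 0.13, limma adjusted p = 0.158). Dnmt3a went the other way, with 459 to 576 normalised reads in cultures 10 and 11 and 426 to 475 in 35B and 35C, and these ranges overlapped. Its difference of -0.18 (standard error 0.06, limma adjusted p = 0.0434) also lost the call without any 1 of the 4 cultures (limma adjusted p = 0.0622 to 0.364), as well as with quantile normalization, without the eBayes trend, in DESeq2 and in control or vitC libraries alone (adjusted p = 0.0560, 0.0568, 0.122, 0.144 and 0.124).

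The other 6 members were not past the threshold in the comparison of culture means. Dnmt1 was at 2657 ± 139 normalised reads in cultures 10 and 11 and 2384 ± 171 in 35B and 35C (SD, 4 libraries each), a difference of -0.15 (limma adjusted p = 0.0900). The Dnmt1 difference did pass over the 8 libraries with treatment as a covariate or with an estimated correlation within culture (limma adjusted p = 0.0172 and 0.0234), and without culture 35B (limma adjusted p = 0.0427), so the member count depends on this choice. Tet1, Dnmt3b and Dnmt3l differed by 0.15, 0.11 and -0.04 (limma adjusted p = 0.327, 0.216 and 0.670). For Tdg the difference was 0.04 and for Tet3 -0.13 (limma adjusted p = 0.631 and 0.162). In control libraries alone, Tet3 differed by -0.30 (limma adjusted p = 0.0392), while in vitC libraries alone its difference was 0.04 (limma adjusted p = 0.762).

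**Figure D4:**
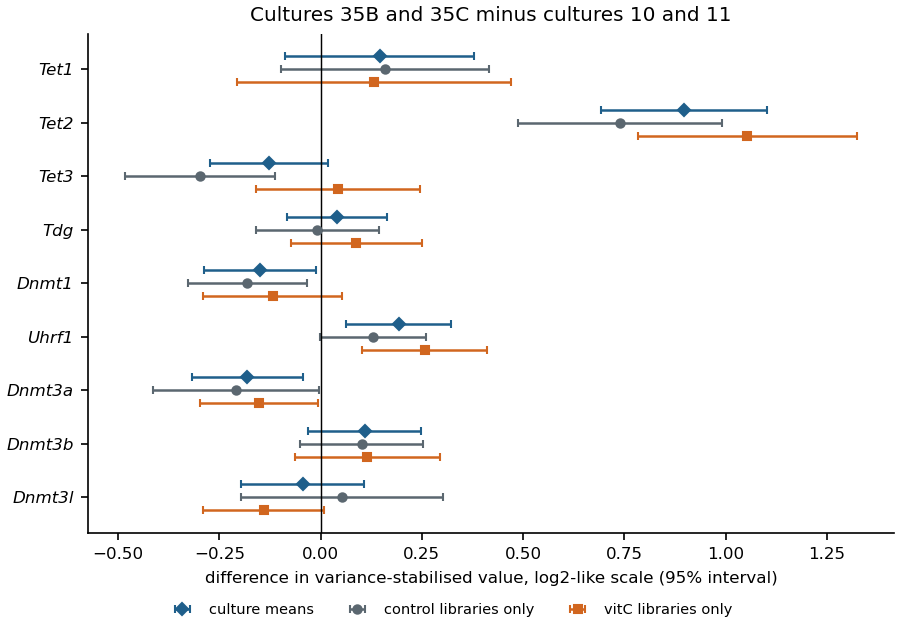
Difference between cultures 35B and 35C and cultures 10 and 11 on the variance-stabilised, log2-like scale for the 9 genes, with 95% limma intervals, for culture means (diamonds), control libraries alone (circles) and vitC libraries alone (squares). Tet2 stands apart at 0.90, with 0.74 and 1.05 in the control and vitC libraries, and Dnmt3a lies below 0 at -0.18.

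Markers of pluripotency and of other cell types moved with the culture sets as well. Summed over 10 listed primed-state genes, the level was 1094 to 1229 normalised reads in cultures 10 and 11 and 759 to 909 in 35B and 35C, with 3 genes lower and 2 higher in the latter past the limma threshold. Lef1, a WNT pathway factor, was at a mean of 261 and 39.7 normalised reads in these sets, the mesoderm factor T at 91.9 and 7.58, and Otx2 at 22.8 and 79.6. Of 5 pluripotency genes, 2 were higher and 1 lower, and of 12 naive genes 3 were higher and 4 lower. The 6 trophectoderm genes summed to 472 to 545 and 434 to 483 normalised reads in the sets, with Elf5 at 0 in all libraries. Past the threshold, 1 of them was higher and 2 lower in 35B and 35C. Krt8 was at a mean of 93.2 and 121.7 and Cdx2 at 94.6 and 8.09. Neural genes, 5 in all, summed to 511 to 586 and 739 to 824, with 2 higher and 0 lower. The 6 endoderm genes summed to 33.7 to 57.6 and 15.8 to 33.8, with 1 higher and 2 lower. The 8 feeder genes summed to 26.8 to 73.9 and 57.7 to 85.3, with 1 higher and 1 lower. The 6 2-cell genes summed to 1.98 to 31.7 and 0 to 9.17, with Tcstv3 at 0 and 0 genes past the threshold. Their part in the differences of Tet2, Uhrf1 and Dnmt3a was not tested.

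Whether the vitC difference itself differed between the sets was asked with an interaction term. It was past the threshold for 0 of 9 members, where limma called 13 of 14631 genes, or 0.0889%, and 3 members had an unadjusted p under 0.05 beside 1074 of all tested genes. For Tet2 the vitC difference was -0.41 in cultures 10 and 11 and -0.10 in 35B and 35C, and these differed by 0.31 (95% interval 0.14 to 0.49, limma adjusted p = 0.259). For Tet3 the differences were -0.20 and 0.14, which differed by 0.34 (95% interval 0.11 to 0.57, limma adjusted p = 0.474). For Dnmt3l they were 0.21 and 0.01 (limma adjusted p = 0.681).

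With 1 library per group, the hESC values carry no test, and their 95% Clopper-Pearson intervals cover counting error only. TET1 (chr10:68560337-68694487 of GRCh38) had 1513 normalised reads in control and 1386 in vitC-treated hESCs, a ratio of 0.916 (0.851 to 0.986). TET2 (chr4:105145875-105279816) had 159 and 171, a ratio of 1.08 (0.865 to 1.35), and TET3 (chr2:73984910-74108176) had 807 and 714, a ratio of 0.884 (0.799 to 0.979). TDG (chr12:103965822-103988874) had 2157 and 2026, a ratio of 0.940 (0.884 to 0.999). These ratios lay on both sides of 1. The intervals of TET1, TET3 and TDG ended below it, as did those of DNMT1 and DNMT3B given next, while that of UHRF1 began just above it. In all, 6 members had intervals that excluded 1, but the share of all genes with such intervals was not counted.

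DNMT1 (chr19:10133342-10231286) had 4099 and 3849 normalised reads in control and vitC-treated hESCs, and UHRF1 (chr19:4903080-4962154) 2831 and 2987. DNMT3A (chr2:25227855-25342590) had 3013 and 3053, and DNMT3B (chr20:32762385-32809359) 7938 and 7463. The ratios were 0.939 (0.898 to 0.982) for DNMT1, 1.06 (1.00 to 1.11) for UHRF1, 1.01 (0.963 to 1.07) for DNMT3A and 0.940 (0.911 to 0.971) for DNMT3B. DNMT3L (chr21:44246339-44262216) had 0 reads in both libraries, which allows up to 0.195 and 0.175 CPM (reads scaled to a library of fixed size). Of the 8 members with reads, 0 differed by 1.5-fold or more, whereas 620 of 13219 genes, or 4.69%, did. The median ratio of these members was 0.940 beside 1.00 for all genes.

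Side by side, and with no test since line, medium and RNA selection differ, the order of the members per kb was not alike in the 2 species. DNMT3B stood first in control hESCs at 1154 normalised reads per kb, whereas Uhrf1 stood first in mESCs, and Dnmt1 and Dnmt3b were not separable there. Dnmt3l stood above Tdg, Dnmt3a, Tet2 and Tet3 in mESCs, while DNMT3L had no reads. TET2 was the lowest detected member in hESCs at 9.62 normalised reads per kb in the control library, whereas TET3 stood at 62.4 there.

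To place the members in their pathway, 98 further genes in 7 lists were examined, of which 96 were found in the mESC table and 94 were tested. Without the replicate block, 0 of the 94 were past the threshold. With it, 13 were higher and 3 lower with vitC, and between the culture sets 21 were higher and 25 lower in 35B and 35C. These shares stand beside the 10.8% and 32.8% over all genes. Median differences with vitC lay between -0.021 and 0.048 over the lists, beside -0.0020 for all tested genes.

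The list on 2-oxoglutarate, the cosubstrate of the TET enzymes, and on metabolites that compete with it had 16 tested genes, of which 5 were higher and 0 lower with vitC in the paired fit. Glud1, glutamate dehydrogenase, was at 2342 ± 251 normalised reads in control and 3314 ± 385 in vitC-treated cells (SD, n = 4), higher in 4 of 4 cultures, by 0.48 (standard error 0.04, limma adjusted p = 1.56e-07 with the block and 0.103 without). Ogdh, a subunit of the complex that consumes 2-oxoglutarate, rose by 0.25 (limma adjusted p = 0.000189 paired, 0.587 unpaired). Between the sets, 6 genes of the list were higher and 4 lower, led by the transaminase genes Gpt2, with a mean of 508 normalised reads in cultures 10 and 11 and 979 in 35B and 35C, and Psat1, with 2292 and 4006. Sdhb, a subunit of succinate dehydrogenase, had 449 and 723.

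In the list on partners of the TET enzymes and the base excision repair that follows them, 19 genes were tested and 1 was past the threshold with vitC in the paired fit. Parp1, a sensor of DNA breaks, rose by 0.14, from 4794 ± 87.2 to 5313 ± 110 normalised reads (SD, n = 4; limma adjusted p = 0.00363 paired, 0.546 unpaired). Gadd45b and Ung, the next by p, differed by 0.14 and 0.09 (limma adjusted p = 0.142 and 0.201 paired). Between the sets 3 were higher and 1 lower, among them 8430410A17Rik, the older name of Hmces, a protector of abasic sites, at 485 and 788 normalised reads, the abasic endonuclease gene Apex1 at 1039 and 1342, and Gadd45a at 63.7 and 89.9. The set call of Apex1 was lost without culture 11 (limma adjusted p = 0.0706). That of Gadd45a was lost without culture 10, 11 or 35C (limma adjusted p = 0.157, 0.110 and 0.123), in control libraries alone (0.274) and in DESeq2 (0.117).

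Of the 14 tested partners and inhibitors of maintenance methylation, 1 was higher and 1 lower with vitC in the paired fit. Dppa3, whose protein binds UHRF1 and keeps it from chromatin, rose by 0.31 (standard error 0.06, limma adjusted p = 0.00363 paired, 0.892 unpaired). On recovered reads with the block its log2 fold change was 0.62 in edgeR (adjusted p = 0.00377) and 0.73 in DESeq2, where the call was lost (adjusted p = 0.0659). Pcna, the replication clamp, fell by 0.14 (limma adjusted p = 0.0151 paired, 0.855 unpaired), a call lost without culture 10 or 11 (limma adjusted p = 0.0695 and 0.0501) and in DESeq2 (0.115). Both also separated the sets, Dppa3 with 132 ± 35.3 normalised reads in cultures 10 and 11 and 27.3 ± 12.7 in 35B and 35C (SD, 4 libraries), and Pcna with 1232 and 1608. Uhrf2, the paralog of Uhrf1, had 773 and 420, opposite in direction to Uhrf1 itself (difference -0.71, limma adjusted p = 5.49e-05), and in all 6 genes of this list were higher and 3 lower in 35B and 35C.

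Of 13 tested partners and repressors linked to de novo methylation, 2 were higher and 1 lower with vitC in the paired fit. The H3K9 methyltransferase genes Setdb1 and Ehmt1 rose by 0.23 and 0.14 (limma adjusted p = 0.000403 and 0.0277 paired, 0.783 and 0.684 unpaired), and the zinc finger gene Rlf fell by 0.21 (limma adjusted p = 0.00302 paired, 0.498 unpaired). The paired call of Ehmt1 was lost when any 1 of the 4 cultures was left out (limma adjusted p = 0.0724 to 0.105), with quantile normalization (0.0564) and in DESeq2 (0.331). Between the sets 1 was higher and 5 lower, with Setdb1 at 2043 and 1482 normalised reads in cultures 10 and 11 and in 35B and 35C. The H3K36 methyltransferase genes Whsc1, now Nsd2, and Setd2, whose marks guide DNMT3 enzymes, stood at 647 and 461 and at 1093 and 829. These 2 set calls were lost for Whsc1 without culture 10 and for Setd2 without culture 11 (limma adjusted p = 0.0621 and 0.0881).

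Of the 9 readers of methylated CpG, 1 was past the threshold with vitC in the paired fit and 5 between the sets, all 5 lower in 35B and 35C. Mbd1 rose by 0.24 with vitC (limma adjusted p = 0.00577 paired, 0.660 unpaired) and was at 154 and 109 normalised reads in the sets. Its paired call was lost in DESeq2 (adjusted p = 0.170), and its set call without culture 10 or 11 (limma adjusted p = 0.0670 and 0.129) and in vitC libraries alone (0.0790). Zbtb4 and Mbd5, the next by p with vitC, differed by -0.14 and 0.08 (limma adjusted p = 0.155 and 0.440 paired). Zbtb33, which encodes the reader Kaiso, had 267 and 180 normalised reads in the sets, and Mbd6 267 and 186. Of the 6 genes for CXXC proteins and other proteins of CpG islands, 0 were past the threshold with vitC in either fit and 3 were lower in 35B and 35C. These were Kdm2b at 406 and 234 normalised reads, Mll1, now Kmt2a, at 926 and 634, and Wbp7, now Kmt2b, at 1200.0 and 953. The set call of Wbp7 was lost without culture 10 or 11 (limma adjusted p = 0.0584 and 0.118). Cxxc1, the nearest with vitC, differed by 0.12 in the paired fit (limma adjusted p = 0.0913).

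In the supply of methyl donors, 17 genes were tested, of which 3 were higher and 1 lower with vitC in the paired fit. Ahcy, the hydrolase that clears the inhibitory product of methylation, fell by 0.17 (limma adjusted p = 0.0101 paired, 0.621 unpaired), a call lost without culture 35B or 35C (limma adjusted p = 0.0574 and 0.0851) and in DESeq2 (0.118). Mtr, methionine synthase, rose by 0.19 (limma adjusted p = 0.0105 paired, 0.840 unpaired), a call lost without culture 10 or 11 (limma adjusted p = 0.0747 and 0.0816) and in DESeq2 (0.134). Between the sets 5 were higher and 4 lower, including Bhmt at 104 and 25.7 normalised reads, Shmt2 at 970 and 1494, and Mtr at 562 and 377.

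**Figure D5:**
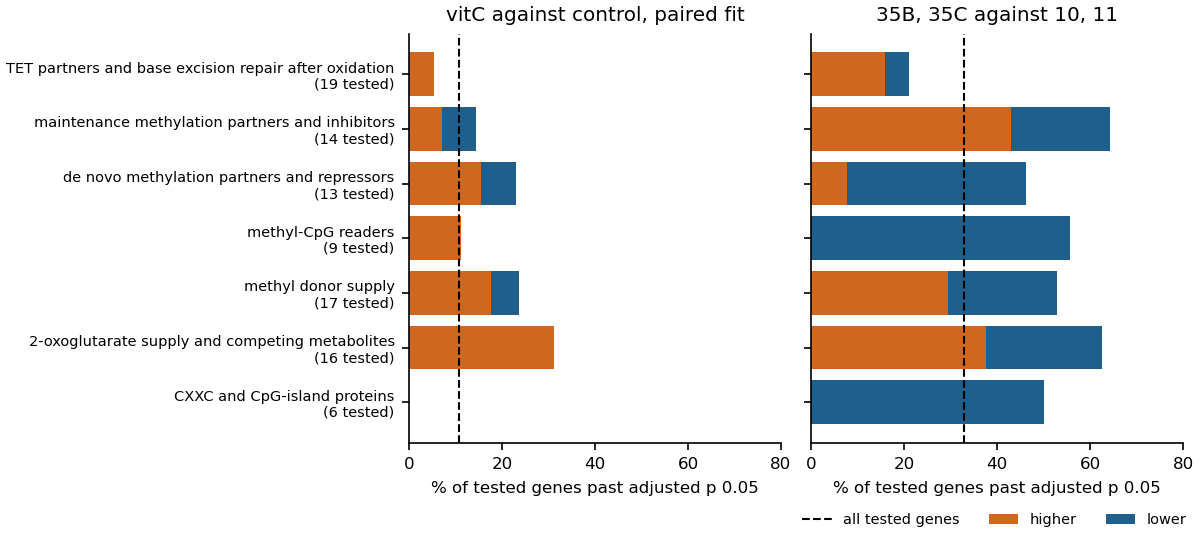
Share of the tested genes of 7 pathway lists past an adjusted p of 0.05, higher or lower, for vitC against control in the paired limma fit (left) and for cultures 35B and 35C against 10 and 11 (right), with dashed lines at the shares over all tested genes, 10.8% and 32.8%. On the left the 2-oxoglutarate list is the longest bar with 5 of 16 genes, all higher, and on the right the CpG readers and CpG-island proteins past the threshold, 5 of 9 and 3 of 6, are all lower.

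Finally, the genes most alike to the members over the 8 mESC libraries were listed by Pearson correlation of the deposited values among 9396 genes with a mean of at least 50 normalised reads. The libraries share cultures and fall into the culture sets, so a high correlation is a description only. For Tet2 these were AC139347.1, Coro1c and Prmt5 (r = 0.996, 0.994 and 0.990), with AC139347.1 at 255 normalised reads in cultures 10 and 11 and 597 in 35B and 35C. For Uhrf1 they were Tprn, Actr2 and Bcl3 (r = 0.985, 0.984 and 0.983), and for Dnmt1 Brpf3, Tead1 and Eif2c2 (r = 0.988, 0.985 and 0.984). Dnmt3a was closest to Gprasp1, 2310003L06Rik and 5730469M10Rik (r = 0.957, 0.953 and 0.949). Dnmt3b was closest to Alg1, Cmtm7 and Lnp (r = 0.978, 0.973 and 0.967). For Dnmt3l they were Zfp426, Pvrl2 and Tex264 (r = 0.947, 0.938 and 0.933). Tet1 was closest to Pla2g4e, Gm15446 and Tada2a (r = 0.949, 0.929 and 0.925).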

How the data were processed

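RNA-seq of 8 mESC and 2 hESC libraries was analysed. Per the methods and the submitters' processing notes, the authors mapped directional libraries to mm10 or hg38 and counted reads per gene with SQuIRE, with Trim Galore, HISAT2 and DESeq2 also named and no version given. The authors deposited gene values after DESeq2's variance stabilisation, on a log2-like scale (lowest value 6.13 for mESCs). They also deposited expected counts per repeat subfamily, used here only for the share of ribosomal RNA repeats. Of the deposited tables, 9 columns of per-sample values were not used.

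Inverting the transformation gave whole reads, within 0.02, for 100% of 116385 mESC and 38034 hESC values, which divided by the size factors are the normalised reads given. Limma 3.58.1 in R 4.3.3 (lmFit, eBayes with trend) was run on the deposited log2 values of 14631 genes, those with reads in 4 or more libraries, with Benjamini-Hochberg adjustment over all of them and a threshold of 0.05. The unpaired fit is the main one, since the methods name no covariate. Because the labels give a control and a vitC library the same culture name, the replicate numbers pair the libraries, and the fit with a replicate block is given beside it. Such libraries deviated together from their group means (correlations over genes of 0.626 to 0.765). These deviations include the gap between the culture sets, so they cannot show that libraries of a culture belong together within a set. With set and treatment in the model, the estimated correlation within culture was 0.127. Culture sets were compared on culture means, and the interaction was fitted with the block. EdgeR 4.0.16 and DESeq2 1.42.0 on recovered reads, other filters, normalizations and pseudocounts, and each library or culture left out were alternatives, of which the block with a culture left out or with quantile normalization was chosen after seeing the data. The fits were tested on simulated data with 200 changed genes, of which the interaction fit recovered 61.5% and the other fits 99.5 to 100%. The simulated cultures did not differ from one another, so this cannot show how the fits fare where cultures differ.

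Gene lengths and coordinates are from the GENCODE annotation of GRCm38 and GRCh38. The members, lists and tests were chosen with earlier results of these data known. Pathway genes are named if past the unpaired threshold or, with none in a list, the 3 with the smallest paired p, likewise 3 per list between the sets; 3 most correlated genes are named for 7 members with more reads. For hESCs, ratios carry 95% Clopper-Pearson intervals, and a fold of 1.5 with at least 50 summed reads describes the background. Kmt2d and Dnmt3c were not analysed here. Some genes that this rule names are not reported here. Depth limits precision most for Tet3.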

Additional observations from a re-analysis of the deposited data

Results flagged for a closer look

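Of the 9 members, 1 was set aside for a closer look. For Tet3 the vitC libraries were below their own control in both cultures of the 10 and 11 set and above it in both cultures of the 35B and 35C set, and the vitC differences of the sets differed by 0.34 on the variance-stabilised scale. The test of that difference did not pass the threshold (limma interaction, adjusted p = 0.474), and with 38 to 102 reads per library this gene had the fewest reads of the members. In the 18 groups of 4 samples tested, control and vitC-treated for each member, 0 had a sample far from the other 3, by a comparison of its gap to the nearest sample with the group's range that chance alone would meet in about 1 of 20 groups.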

How the results depend on the processing

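For vitC against control in mESCs, 0 members were past the threshold unpaired in limma, edgeR and DESeq2, under other filters and scalings, and with each library left out. With the replicate block 1 member was past it in limma, edgeR and DESeq2 (Tet2 in each), 1 without culture 10 (Dnmt1), 2 without culture 11 (Tet1 and Tet2), 1 without culture 35B or 35C (Tet2), and 2 with quantile normalization (Tet1 and Tet2). Over all genes the 50 unpaired calls became 1581 with the replicate block, 1832 with it in edgeR, 476 with it in DESeq2, 111 in unpaired DESeq2, 30 under the stricter filter, 175 in cultures 10 and 11 and 4 in cultures 35B and 35C alone, and 1695 with the block and quantile normalization. With the block and without culture 10, 11, 35B or 35C in turn, the calls were 870, 1068, 1290 and 959, and unpaired with each library left out they lay between 19 and 32, a spread that goes with fewer samples.

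Small differences that did not pass the threshold turned in sign under some choices. With each library left out, the vitC difference lay between -0.18 and 0.0062 for Tet1, -0.099 and 0.038 for Tet3, -0.039 and 0.0027 for Tdg, -0.0076 and 0.098 for Uhrf1, -0.062 and 0.14 for Mll1, and -0.033 and 0.35 for Uhrf2. In cultures 35B and 35C alone it was 0.14 for Tet3, 0.033 for Tdg, -0.048 for Mbd5 and -0.033 for Uhrf2, and in cultures 10 and 11 alone -0.026 for Uhrf1. With the block, Tet3 was at 0.015 without culture 10 and 0.044 without culture 11, and Tdg at 0.0062 without culture 10.

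Between the culture sets, 4 members were past the threshold over the 8 libraries with treatment as a covariate or an estimated correlation, 1 or 2 with a culture left out, and 1465 to 4546 genes, beside 2471 in the control libraries alone and 2826 in DESeq2. Tet3 was at 0.043 in vitC libraries alone, Tdg at -0.0079 and Dnmt3l at 0.053 in control libraries alone, and with a culture left out Tet1 lay between -0.065 and 0.36 and Dnmt3l between -0.15 and 0.059. The interaction called 0 genes without the replicate block and 29 under the stricter filter. No member's hESC ratio left its counting interval under other scalings. Of 387 values of the members over all alternatives, 341 kept both direction and side of the threshold, 14 lost the threshold, 14 gained it and 18 changed sign. Unless stated, the cause was not tested. A culture set rests on 2 cultures, so its spread is estimated with help from all genes, and a set left with 1 culture is assumed to vary like the other. Depth limits Tet3 most, and the hESC comparison has no replicate.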
